A study of Mus musculus with 7 samples.

Results

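The regions described here were open chromatin peaks that the day 28 library of the series listed and that none of its other 3 libraries listed. Overlapping peaks of the 4 lists on chromosomes 1 to 19 and X were merged, and a merged region belonged to the set when it held a day 28 peak and no peak from untreated, day 1 or day 7 epithelium. There were 11252 such regions, 5.02% of the 223972 merged regions in all and 10.4% of the 108324 with a day 28 peak. Each consisted of 1 day 28 peak. The regions were chosen by presence or absence in the peak lists, so that pattern and every quantity tied to it are given as a description and carry no test. The libraries came from epithelial cells purified from the pancreas of wild-type C57BL/6J mice, either untreated or harvested 1, 7 or 28 days after caerulein. The sources used here do not state the age of the mice, how many animals made up a library or the caerulein doses. Each group was 1 library, so no difference below has a replicate check. Libraries of DCLK1-positive cells from Dclk1-DTR-ZsGreen mice belong to the series and were not analysed here.

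Caerulein is an analogue of the hormone cholecystokinin and overstimulates acinar cells, the enzyme-secreting cells that make up most of the exocrine pancreas. The resulting pancreatitis is transient. During it acinar cells lower their enzyme programme and take on duct-like features, and they later regain their identity. ATAC-seq marks open DNA by inserting sequencing adapters with the Tn5 transposase, and its peaks fall at promoters and at enhancers, which are often spread through and around the genes they control. A peak that 1 list holds and another lacks can reflect a change in the chromatin, in the mixture of cells or in the depth and enrichment of the library, and a list of peaks does not separate these.

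Few promoter windows were reached at day 28 alone, and few were reached in any other list alone. RefSeq promoter windows were taken on GRCm38.p6, which is also the assembly of the peak coordinates, and run from 250 bases before to 50 bases after each of 32619 annotated starts. Only 74 of the 11252 regions overlapped windows that no other list reached, 76 windows in all, of which 34 belonged to protein-coding genes. Of these 34 genes, 19 had a further annotated start and 12 had a further window that was open in all 4 lists. The untreated, day 1 and day 7 lists alone reached 301, 454 and 114 windows, in sets of 23435, 51456 and 10048 regions. The 5 windows below are those of protein-coding genes with the highest day 28 fold among windows covered over at least 150 bases, although Dcun1d1 tied for the last place with Inpp4a and Lmtk3, whose windows are not shown. They are shown because they are the annotated starts at which a day 28-only peak stood. Capitals mark matches to the searched motifs on either strand.
Xlr3a: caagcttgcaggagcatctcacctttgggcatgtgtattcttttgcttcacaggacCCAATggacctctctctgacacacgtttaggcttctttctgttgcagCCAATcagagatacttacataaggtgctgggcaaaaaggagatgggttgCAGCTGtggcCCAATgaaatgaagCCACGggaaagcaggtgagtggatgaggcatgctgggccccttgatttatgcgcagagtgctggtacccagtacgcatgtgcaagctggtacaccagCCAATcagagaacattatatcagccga
Dnajc7: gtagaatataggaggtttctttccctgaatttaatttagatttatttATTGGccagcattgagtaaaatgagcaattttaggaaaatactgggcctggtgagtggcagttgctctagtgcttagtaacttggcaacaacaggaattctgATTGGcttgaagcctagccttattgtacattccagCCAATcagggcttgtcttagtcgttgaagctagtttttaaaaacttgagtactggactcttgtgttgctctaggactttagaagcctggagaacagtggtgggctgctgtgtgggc
Tex19.1: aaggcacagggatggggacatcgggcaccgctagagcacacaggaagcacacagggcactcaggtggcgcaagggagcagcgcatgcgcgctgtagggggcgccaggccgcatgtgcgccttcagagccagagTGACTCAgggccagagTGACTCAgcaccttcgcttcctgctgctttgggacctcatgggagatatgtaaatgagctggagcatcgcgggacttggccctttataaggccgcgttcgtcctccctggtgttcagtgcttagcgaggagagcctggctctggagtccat
Homer1: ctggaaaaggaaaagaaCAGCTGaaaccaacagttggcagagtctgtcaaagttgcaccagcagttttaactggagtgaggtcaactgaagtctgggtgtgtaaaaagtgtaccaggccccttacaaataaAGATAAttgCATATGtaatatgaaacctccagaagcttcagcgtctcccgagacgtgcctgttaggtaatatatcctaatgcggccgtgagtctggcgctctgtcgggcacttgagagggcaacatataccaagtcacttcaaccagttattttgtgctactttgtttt
Dcun1d1: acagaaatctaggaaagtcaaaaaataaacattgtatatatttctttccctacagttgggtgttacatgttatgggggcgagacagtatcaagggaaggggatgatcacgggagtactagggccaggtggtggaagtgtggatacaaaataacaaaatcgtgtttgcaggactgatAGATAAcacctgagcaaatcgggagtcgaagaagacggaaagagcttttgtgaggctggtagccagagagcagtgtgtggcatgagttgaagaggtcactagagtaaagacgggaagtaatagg

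The window of Xlr3a, a lymphocyte-regulated gene of the X chromosome, was chrX:73097046-73097345 on the minus strand. Its day 28 peak covered 247 of the 300 bases and had a fold enrichment of 10.8. Xlr3a has close copies in the mouse genome, between which short reads may not be assigned with certainty. The window of Dnajc7, which encodes a co-chaperone of HSP70 and HSP90, was chr11:100613303-100613602 on the minus strand, with 226 bases covered at 6.24 fold. It was 1 of 2 annotated starts of the gene, and the other was open in all 4 lists. The window of Tex19.1, a germ cell gene, was chr11:121145893-121146192 on the plus strand, with 209 bases covered at 5.39 fold, and it held 2 matches to the AP-1 letters. Homer1, a scaffold protein gene, had its window at chr13:93307784-93308083 on the plus strand, with 276 bases covered at 5.11 fold. Dcun1d1, which promotes cullin neddylation, had its window at chr3:35930025-35930324 on the minus strand, with 203 bases covered at 4.83 fold. Homer1 and Dcun1d1 also had other starts that were open in all 4 lists.

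The 76 windows were poorer in GC than promoters open at every time. Their median GC content was 50.3%, against 61.0% in the 15776 windows open in all 4 lists, 46.3% in the 14229 windows open in none and 53.0% over all windows. The ratio of observed to expected CpG was 0.274, 0.744 and 0.189 in the first 3 of these sets. Windows open in the untreated, day 1 or day 7 list alone had a median GC content of 53.3%, 49.7% and 52.5%. The motifs searched on both strands were TGANTCA for AP-1, AAGGTCA for the NR5A2 half-site, AGATAA for GATA factors and CAGCTG or, as a second form, CATATG for E-boxes. The others were TGTTTAC for forkhead factors, a gapped CTCF core, CCAAT for NF-Y, CCGGAAG for ETS factors, TGTGGTT for RUNX factors, GGGCGG for the GC box, GTTAAT for the HNF1 half-site and CCACG for XBP1 and ATF6. The open positions of the CTCF core can also spell the NF-Y or the XBP1 letters. The GC box was in 18.4% of the 76 windows (exact 95% interval 10.5 to 29.0) and in 35.9% of all windows, and the ETS letters were in 1.32% (0.0333 to 7.11) and 8.92%. Windows of the untreated, day 1 or day 7 list alone also held fewer of both, with the GC box in 21.3%, 18.7% and 28.9% and the ETS letters in 3.65%, 3.30% and 0.877%. The AP-1 letters were in 10.5% (4.66 to 19.7) against 7.85% of all windows and 20.3% of the day 1-only windows. For the other 10 motifs the share over all windows lay within the interval of the 76.

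The depth and enrichment of the 4 libraries bear on what could be listed. The background pileup, recovered from the spacing of the authors' fold values, was 5.07, 5.35, 2.72 and 2.52 in the untreated, day 1, day 7 and day 28 libraries. The lowest fold listed was 2.47, 2.36, 2.95 and 2.84. In regions that all 4 lists shared, the median of fold minus 1 was 7.40, 16.6, 15.1 and 11.5, so the untreated library was the least enriched. Scaled by these medians, a day 28 fold of 3.28 corresponds to the lowest fold of the untreated list, and 10878 of the 11252 regions (96.7%) lay at or above it. For days 1 and 7 the corresponding folds, 1.94 and 2.49, are below the lowest fold of any day 28 peak and separate no regions.

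The day 28-only regions were low and narrow. Their fold enrichment, the authors' ratio of summit to background, had a median of 3.97, a 5th percentile of 3.41 and a 95th percentile of 5.96, and it ran from 2.84 to 11.4. In overlapping fragments at the summit this was a median of 13, with a range of 9 to 39. The other 97072 day 28 regions had a median fold of 8.23 and a median of 28 fragments. The median width was 170 bp against 407 bp for those other regions, and 67.8% of the day 28-only regions were narrower than 200 bp, close to the narrowest peak of each list, 146 bp. Together they covered 2.19 Mb. A −log10 q of at least 5 was reached by 5140 of them, or 45.7%.

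Regions listed at 1 other time alone were of a similar width, except those of day 1. A −log10 q of at least 5 was reached by 64.0%, 82.3% and 55.0% of the untreated-only, day 1-only and day 7-only regions. All 3 shares were above the 45.7% of the day 28-only regions. The median folds of these 3 sets were 3.62, 4.10 and 4.30, against 3.97 at day 28, so the order by fold was different. The 23435 regions of the untreated list alone, 20.0% of its regions, had a median width of 172 bp, and the 10048 of the day 7 list alone, 8.40% of its regions, a median width of 171 bp. The 51456 regions of day 1 alone were 33.7% of that list and had a median width of 234 bp. Their highest fold was 49.8, against 16.1 for untreated, 15.0 for day 7 and 11.4 for day 28. Folds and −log10 q values of different lists rest on different backgrounds, so a common q threshold is not equally strict in each. These values describe each list by itself.

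**Figure D1:**
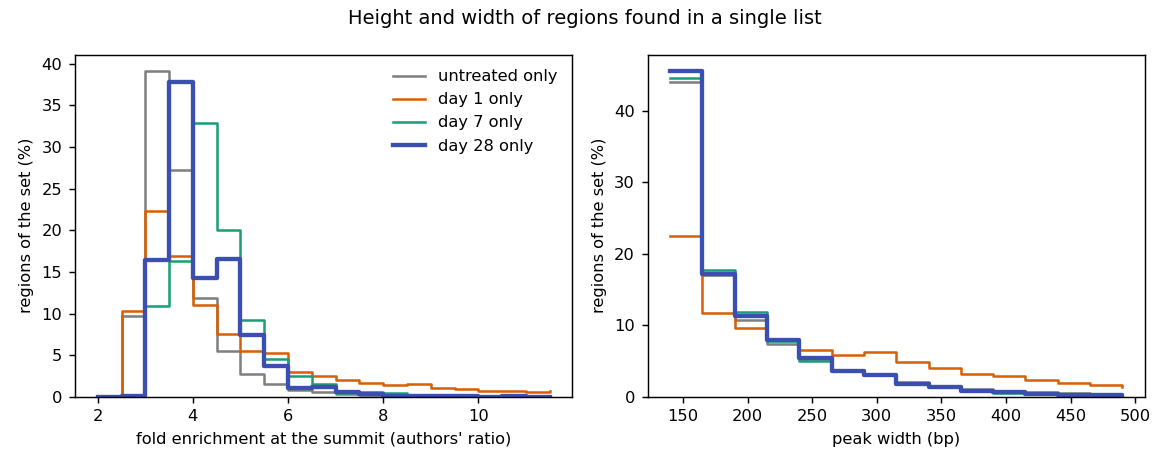
Distribution of fold enrichment at the summit (left, the authors' ratio) and of peak width in bp (right) for regions found in 1 list alone, as a percentage of each set. The day 28 curve (thick blue) has its median at 3.97 fold and 170 bp and falls faster to the right than the day 1 curve.

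At the edge of the rule, 5 regions shared the lowest −log10 q, 1.91, at a fold of 2.84 and 9 fragments. The first 3 of these by chromosome lay near Msgn1 and inside Lhfpl2 and Ywhaz, and the nearest peak of another list was 209, 33 and 97 bp away. Just outside were day 28 regions kept out by a weak peak of another list. At Ddx59 a day 28 peak of 4.83 fold was excluded by a day 1 peak of 2.52 fold. At Aqp12, which encodes an aquaporin of acinar cells, a day 28 peak of 3.41 fold was excluded by an untreated peak of 2.64 fold. Of the 11629 regions shared by day 28 and untreated alone, 12.6% had an untreated −log10 q under 5. The corresponding shares were 15.5% of the 2091 regions shared with day 1 alone and 28.3% of the 2486 shared with day 7 alone.

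Most of the regions were close neighbours of chromatin that was open at another time. The median distance from a day 28-only region to the nearest peak of another list was 481 bp, and 62.3% (exact 95% interval 61.4 to 63.2) lay within 1 kb of one. The share within 1 kb was 47.8% for untreated-only, 44.9% for day 1-only and 50.8% for day 7-only regions. Only 717 day 28-only regions, 6.37% (5.93 to 6.84), were more than 10 kb from any other list's peak, against 11.2%, 14.3% and 13.5% in those sets. Merging peaks closer than 200 bp left 6917 regions, of which 41.2% lay within 1 kb of another list's peak. The median fold was 3.97 for regions within 1 kb, 4.26 for those from 1 to 10 kb away and 3.97 for those beyond 10 kb, and the share with a −log10 q of at least 5 was 42.9%, 50.5% and 49.8%. The intervals treat regions as independent and cover counting error alone, and neighbouring regions are not independent.

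Among the neighbours, regions that untreated epithelium had and day 1 epithelium lacked were overrepresented, as they also were beside untreated-only regions. The nearest region with a peak of another list was open in untreated but not at day 1 or day 7 for 2808 of the day 28-only regions, 25.0%, while 16.5% of all such candidate regions were of that kind. It was open in untreated and at day 7 but not at day 1 for a further 1517, 13.5%, against 5.91% of the candidates. Neighbours absent from the untreated list made up 24.7%, against 44.9% of the candidates. For the untreated-only regions the 3 shares were 10.1%, 13.3% and 36.3%, against 5.80%, 6.27% and 53.2% of their candidates. They departed from the candidates in the same directions, but the first kind was not the same set. Regions of the untreated list alone were not candidates there, which left the 11629 regions shared by untreated and day 28 alone. For the day 7-only regions the 3 shares were 12.1%, 6.46% and 46.8%, against 16.4%, 5.87% and 45.2%. Neighbours open in all 4 lists made up 33.9% for day 28, against 28.2% of the candidates, and 30.4% for day 7, against 28.0%.

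**Figure D2:**
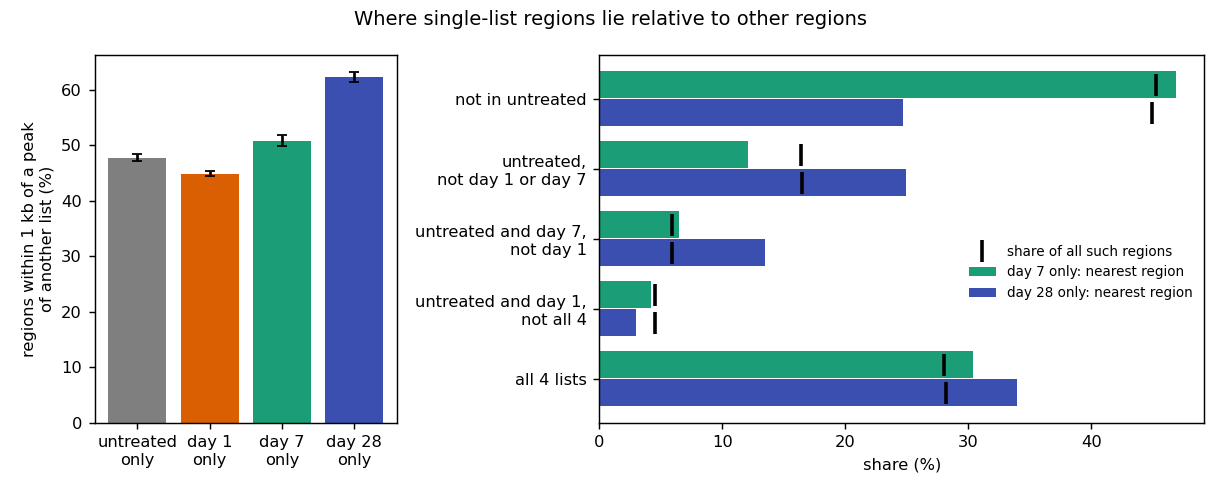
Left, the share of each single-list set within 1 kb of a peak of another list, with exact 95% intervals. Right, the kind of the nearest region for day 7-only and day 28-only regions (bars, %) beside the share of that kind among all regions with a peak of another list (black marks); the day 28 bars exceed the marks where the neighbour was open in untreated and closed at day 1.

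The regions lay inside genes more often than on their ends. A protein-coding gene span held 7265 of the 11252 summits, 64.6% (63.7 to 65.5), against 58.7% of the other day 28 regions and 60.6%, 55.2% and 53.0% of the regions of untreated, day 1 and day 7 alone. Within 1 kb of an annotated gene end were 657, 5.84% (5.41 to 6.29), against 15.6% of the other day 28 regions. The share was low in every single-list set, at 7.07%, 4.78% and 6.40% for untreated, day 1 and day 7 alone. Among regions outside chromosome 18, whose starts the table used does not hold, 5.24% lay within 1 kb of an annotated start, against 15.2%. For 1159 regions no protein-coding gene was within 50 kb. By chromosome the share of day 28 regions found at day 28 alone was lowest on chromosome 7, at 9.36%, and highest on chromosome 6, with 723 of 6030 regions (exact 95% interval 11.2% to 12.8%). Without the regions linked to the gene Snd1, chromosome 6 stood at 11.2% (10.4 to 12.1).

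The other 10093 regions were linked to 5156 genes, the nearest protein-coding gene within 50 kb in each case. They made up 10.5% of the 96553 day 28 regions with such a link, which is the background for every gene and gene list below. At 3070 genes there was 1 region, and at 64 genes there were 10 or more, 878 regions in all.

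Snd1 held far more of them than any other gene. Snd1 encodes a Tudor-domain nuclease that works in RNA silencing and as a transcriptional co-activator, and it spans 455 kb at chr6:28480337-28935162. Of its 134 day 28 regions, 61 were found at day 28 alone, 45.5% (36.9 to 54.3). The other lists had 69 regions there in untreated epithelium, 72 at day 1 and 65 at day 7, of which 10, 9 and 9 were in that list alone. Of the 61 regions, 60 lay inside the gene, from 1.35 to 411 kb from its lower-coordinate end, and 26 were within 1 kb of another list's peak. Their folds ran from 3.12 to 7.66, and the strongest, at chr6:28609364-28609677, had 26 fragments and lay 3666 bp from the nearest other peak. The longest run of day 28-only regions in the genome with no other region between them, 9 regions over 47.5 kb, was in this gene, and 3 of the 10 next longest runs were there as well. Inside the gene the day 28 list held 149 peaks covering 51.0 kb, against 82, 67 and 72 peaks covering 25.9, 36.2 and 29.3 kb.

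**Figure D3:**
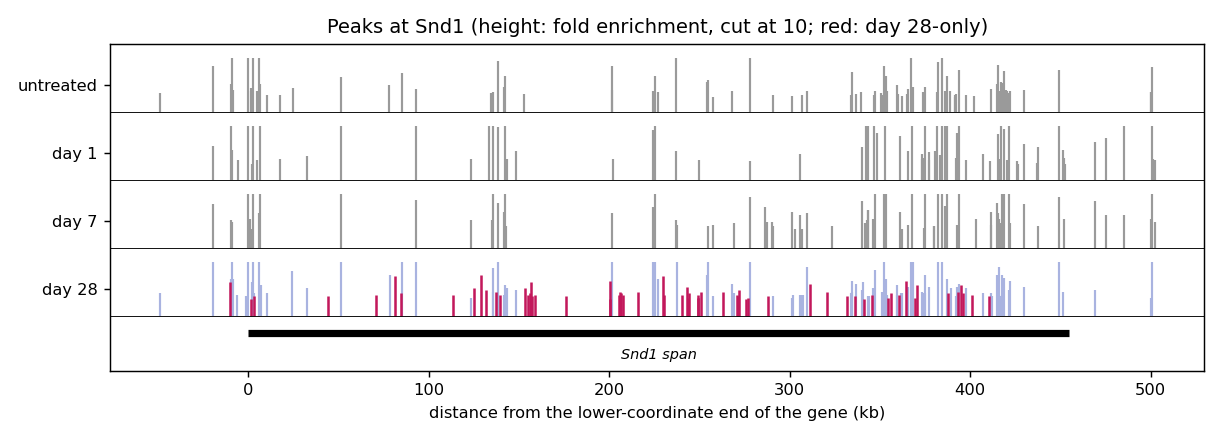
Peaks of the 4 lists at Snd1 and 50 kb to either side, by distance in kb from the lower-coordinate end of the gene. Bar height is the authors' fold enrichment, drawn up to 10, and red bars are the day 28-only peaks, which are spread over the gene body between the peaks shared with other lists.

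Most of the next genes in rank were also long, and most were outside the gene lists below. Arid1b, which encodes a subunit of the SWI/SNF chromatin remodeller, held 29 day 28-only regions of 125 at day 28, with 113, 91 and 76 regions in the untreated, day 1 and day 7 lists. Adk, the adenosine kinase gene, held 23 of 65, and the other lists had 45, 22 and 25 regions. Mecom, a zinc finger transcription factor gene, held 20 of 61, and Rap1gap2, which encodes a GTPase-activating protein for Rap1, 20 of 81. Eif2ak3 is the gene of PERK, a kinase that senses unfolded protein in the endoplasmic reticulum. It is shorter, 60.8 kb, and held 19 of 48, with 30, 10 and 16 regions in the untreated, day 1 and day 7 lists.

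Rere, a gene of the atrophin family of transcriptional co-regulators, held 19 of 85, and the acinar factor gene Gata4 held 17 of 54. Nav2, a cytoskeletal regulator gene, held 17 of 73, and Sgms2, which encodes a sphingomyelin synthase, 16 of 50. In 9 of these 10 genes the day 28 list held more regions than each of the other lists. The exception was Nav2, with 83 in the untreated list and 73 at day 28. The last place was tied at 16 regions between Sgms2, Baiap2l1, Foxp1 and Aff1, taken in order of their strongest region, and Foxp1 had 109 regions at day 1 against 103 at day 28. Shares ranged from 22.4% at Rere to 45.5% at Snd1, above the background of 10.5% in each, as the ranking by number makes likely.

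**Figure D4:**
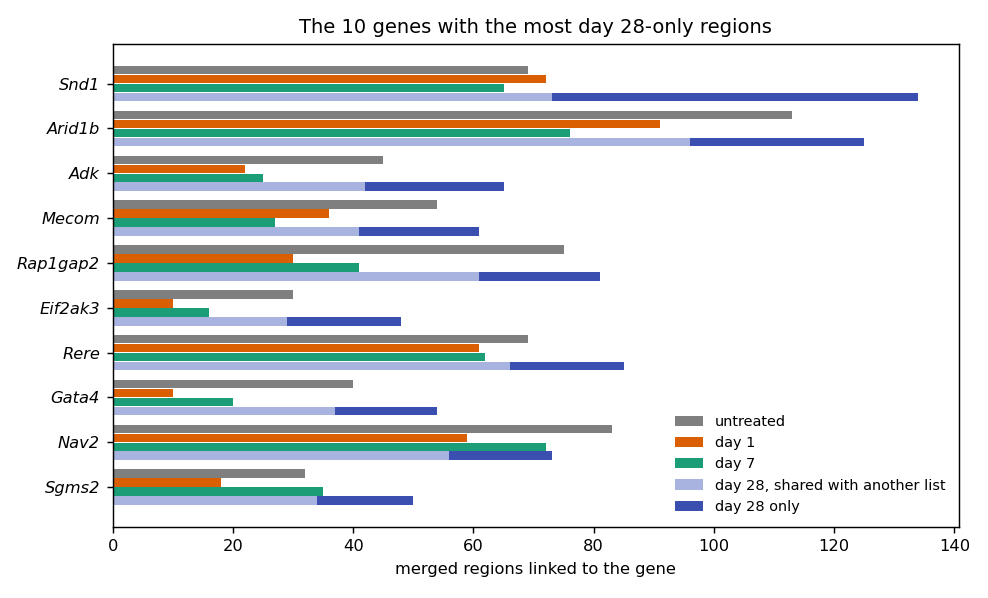
Merged regions linked to each of the 10 genes with the most day 28-only regions, by list, with the day 28 bar split into regions shared with another list (light blue) and regions of day 28 alone (dark blue). Day 28 has the longest bar at each gene drawn except Nav2; Foxp1, tied with Sgms2 for the last place and not drawn, had more regions at day 1.

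Of 26 gene lists, the digestive enzyme genes of acinar cells held the largest day 28-only share. There 66 of 265 day 28 regions were found at day 28 alone, 24.9% (19.8 to 30.6) against the background of 10.5%, and 19 of the 24 genes had at least 1. The median fold of these 66 was 4.26, and 51 of them lay within 1 kb of another list's peak. Whether the day 28 preparation held a larger share of acinar cells or the acinar chromatin was more open per cell cannot be told apart in bulk libraries. The same genes had 223 regions in the untreated list, 51 at day 1, 92 at day 7 and 265 at day 28.

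Pnlip, the pancreatic lipase gene, held 15 day 28-only regions of 38, where the untreated, day 1 and day 7 lists had 25, 7 and 11. The strongest, at chr19:58672398-58672580 inside the gene, had a fold of 5.68 and 19 fragments. Cpb1, the carboxypeptidase B1 gene, held 7 of 17, and the earlier lists had 10, 0 and 3 regions. Gp2, which encodes the main zymogen granule membrane glycoprotein, held 7 of 20. Among the genes with 0 were Amy2b, Cela1, Ctrl and Sycn. On gene ends lay 4 of the 66, of which 2 were at Gp2 and 1 each at Cela3b and Cpb1. Enzyme families such as the trypsins, elastases and amylases have close copies, and reads may not be assigned to 1 copy with certainty.

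Acinar transcription factor genes held 62 of 323, 19.2% (15.0 to 23.9), over 11 of 14 genes. Gata4 held 17 of 54, with 40, 10 and 20 regions in the earlier lists, and its strongest day 28-only region, at chr14:63211422-63211618, had a fold of 5.96. Foxp1, a forkhead factor gene, held 16 of 103, with 95, 109 and 86 regions in the earlier lists. Nr5a2, the gene of a nuclear receptor that maintains acinar identity, held 10 of 46, and the earlier lists had 44, 11 and 21 regions. Its strongest was 7.38 fold, at chr1:136959619-136959793, 756 bp from an annotated gene end. Foxa2, a pioneer factor gene of foregut organs, held 6 of 26. Ptf1a and Rbpjl, whose products form the PTF1 complex, held 2 of 15 and 2 of 11, and Bhlha15, Hnf4a and Nr0b2 held 0.

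Unfolded protein response and folding genes held 62 of 296, 20.9% (16.5 to 26.0), over 16 of 25 genes. Eif2ak3 gave 19 of them, and its strongest, at chr6:70894661-70894999, had a fold of 8.23 and 28 fragments. Sel1l, an adaptor of endoplasmic reticulum-associated degradation, gave 11 of 47, each within 1 kb of another list's peak. Atf6, the gene of a membrane-bound stress transcription factor, gave 9 of 28, and the untreated list had 12 regions there. Herpud1 gave 4 of 12. Hspa5 and the disulfide isomerase genes Pdia2, Pdia4 and Pdia6 gave 0. Leaving out the gene with the most regions, an alternative chosen after the data were seen, the share was 22.5% for digestive enzymes, 16.7% for acinar factors and 17.3% for this list. The list of secretory translocation and export genes stood at the background, with 22 of 202, 10.9% (6.95 to 16.0), led by Arfgap3 with 6 and followed by Rab27b, Sec62 and Sec24d with 3, 3 and 2.

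Secretagogue signalling genes, through which cholecystokinin and acetylcholine drive secretion, held 56 of 389, 14.4% (11.1 to 18.3). Prkce, a protein kinase C gene, held 10 of 83 and Itpr2, an inositol trisphosphate receptor gene of acinar cells, 8 of 40. Atp2a2, the gene of the calcium pump SERCA2, held 5 of 15, with 1 at 8.23 fold, and Rap1b held 5 of 11. The regeneration and Reg list held 14 of 67, 20.9% (11.9 to 32.6), of which Reg3b gave 3 of 5 and Nupr1, Spink1 and Reg3a gave 2 each. The ubiquitous gene list, included as a reference, also lay above the background with 17 of 85, 20.0% (12.1 to 30.1), of which Ywhaz gave 5 of 23, and Actb and Rpl13a gave 2 each. Without Reg3b the lower bound of the Reg list was 9.20%, below the background of 10.5%.

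Among lists for injury, plasticity and growth signalling, the intervals of the 4 larger lists held the background. Immediate-early and AP-1 genes held 25 of 228, 11.0% (7.22 to 15.8), with 3 each at Jun and Klf6 and 2 each at Atf3 and Fos. Ductal and metaplasia genes held 22 of 208, 10.6% (6.75 to 15.6), with 6 at Clu and 3 each at Krt18, Spp1 and Sox9. Inflammatory and NF-kB genes held 21 of 253, 8.30% (5.21 to 12.4), with 8 at Stat3, 4 at Nfkbiz, 4 at Il6ra and 2 at Socs3. Without Stat3 the inflammatory share was 5.75% (3.10 to 9.64), below the background. EGFR and MAPK genes held 36 of 275, 13.1% (9.34 to 17.7), with 10 at Egfr and 4 each at Tgfa, Sos1 and Spred2. Interferon response genes held 4 of 53 and cell cycle genes 12 of 98.

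Among metabolic lists, amino acid and one-carbon genes held 24 of 154, 15.6% (10.2 to 22.3). Asns, the asparagine synthetase gene, gave 6 of its 15 regions, Slc7a5 gave 4, and Slc38a2 and Slc7a11 gave 3 each. Lipid and sterol genes held 23 of 218, circadian clock genes 25 of 268, of which Nfil3 gave 8, and oxidative phosphorylation genes 4 of 57.

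Genes of other cell types had few day 28 regions in most lists, and the day 28-only share of most of these lists was near or above the background with wide intervals. Fibroblast and stellate genes held 4 of 132, 3.03% (0.832 to 7.58), with 2 at Twist2 and 1 each at Prrx1 and Col5a1, and theirs was the sole list whose interval lay below the background. These genes had 117, 342, 211 and 132 regions in the untreated, day 1, day 7 and day 28 lists. In the untreated, day 1 and day 7 lists, 3.42%, 41.5% and 6.16% of them were in that list alone. Over all regions of those lists the shares were 20.0%, 33.7% and 8.40%, so a low share was not particular to day 28. Endothelial genes held 12 of 94, 12.8% (6.77 to 21.2), with 4 at Erg and 3 at Egfl7, while their regions numbered 153, 142, 138 and 94 in the lists in order of time. Leukocyte genes held 3 of 19, 15.8% (3.38 to 39.6), 1 each at Cd3e, Cd3g and Itgam. Tuft cell genes held 9 of 100 (exact 95% interval 4.20% to 16.4%), with 3 each at Gfi1b and Trpm5 and 1 at Dclk1, and endocrine genes 8 of 74, 10.8% (4.78 to 20.2), of which 4 were at Nkx2-2. Adipocyte, neuron and glia, and skeletal muscle genes held 2 of 44 (4.55%), 3 of 25 (exact 95% interval 2.55% to 31.2%) and 2 of 15 (13.3%), and erythroid genes 0 of 9. Regions linked to fibroblast, endothelial and leukocyte genes were thus present in a list labelled epithelial. The link is to the nearest gene and does not show in which cells a region was open. The part of these regions in the counts above was not tested.

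**Figure D5:**
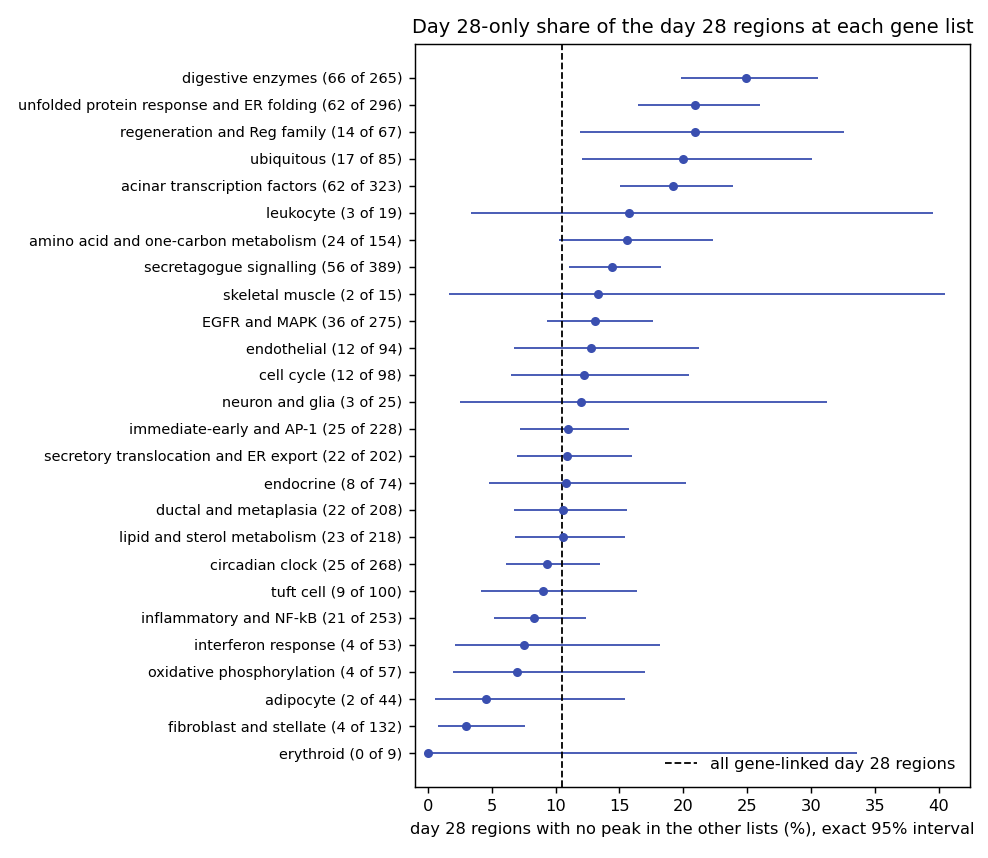
Share of the day 28 regions of each gene list that were found at day 28 alone (points, %, with exact 95% intervals) beside the share over all gene-linked day 28 regions (dashed line, 10.5%). Digestive enzyme genes are highest at 24.9%, and fibroblast and stellate genes lie below the line at 3.03%.

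The strongest single regions had no common location. The highest fold, 11.4 with 39 fragments, was shared by a region 17585 bp from Sphk1, the sphingosine kinase gene, at chr11:116513013-116513427 and a region inside Bsdc1 at chr4:129467678-129467959. The first lay 171 bp from a peak of another list, beside a region open at all 4 times. The second belonged to a run of 6 day 28-only regions over 14.1 kb, with folds from 4.26 to 11.4, and lay 3001 bp from any other list's peak. Regions near Med14 and Xlr3a had a fold of 10.8, and those inside Dpp9, Hmox2 and Dlgap1 had 10.5, 9.93 and 9.93. Otud3, Rybp and Eif2d followed with 9.65, 9.65 and 9.37. Of these 10 regions, the 1 at Xlr3a was more than 10 kb from a peak of another list, at 42660 bp.

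At gene ends the highest folds were at Med14 and Xlr3a, and next at Fcer1g, which encodes the Fc receptor gamma chain of myeloid and mast cells, with 8.52. Rab18 and Aldh18a1 had 7.66, Nr5a2 7.38 and Kdf1 6.81. Mon2 and Ric3 had 6.53, and Cracdl had 6.24. Next to Aldh18a1, the gene of the enzyme that begins proline synthesis from glutamate, the region lay 15 bp from another list's peak, while that at Ric3 lay 52894 bp from any.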

How the data were processed

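ATAC-seq peak lists of 4 libraries were used, 1 each for untreated epithelium and for days 1, 7 and 28 after caerulein. Per the submitters' processing notes the tools included MACS2 2.1.0.20150731, Bowtie2 2.2.6, cutadapt, deepTools and SAMtools, and the mouse build was GRCm38 (mm10). The authors deposited, for each peak of each library, the fold enrichment of the summit over background as a ratio, its −log10 p and −log10 q, a score and the summit offset. The authors' score was not used further. No read counts were used, and the sequencing depth of the libraries is unknown.

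Peaks on chromosomes 1 to 19 and X were merged where they overlapped by at least 1 bp, and merging was checked with bedtools 2.31.1. A region with several peaks of a list took the strongest. The fragments at each summit were recovered from the spacing of the fold values with 1 background per list, and 100% of summits came out whole within 0.05. The −log10 p entered only as a check of these values. A region was linked to the protein-coding gene nearest to its summit within 50 kb, from RefSeq gene spans of GRCm38.p6. The RefSeq promoter table used holds no starts on chromosome 18. Exact intervals are Clopper-Pearson at 95% (scipy 1.17.1) and cover counting error alone. With 1 library per group no test between groups was possible. The scripts (Python 3.11.15, pandas 2.3.3, numpy 2.4.6) were tested on simulated data.

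The regions and gene lists were chosen with earlier results of these data known. Of the genes in the lists, Mx1, Mx2 and Pap did not match the gene table. The text names the 10 regions with the highest fold near a gene and the 10 with the highest fold within 1 kb of a gene end. It also names the 3 weakest regions beside 3 kept out by 1 weak peak, the 10 genes with the most regions and up to 4 genes per list, some of which are not reported here. The promoter windows other than that of Xlr3a, and the list genes with 0 regions or outside the leading 4, were chosen after their values were seen. Alternatives covered the overlap rule, the q threshold, a 200 bp merge, a common enrichment floor, the gene link and the gene end distance.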

Additional observations from a re-analysis of the deposited data

How the results depend on the processing

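The count of 11252 regions fell to 5140 with a day 28 −log10 q of at least 5 and to 6917 when peaks closer than 200 bp were merged. It was 10878 with a common enrichment floor and 14204 when other lists counted only at a −log10 q of at least 5. When only another list's peak over the summit counted, 14685 single day 28 peaks qualified. Peaks and not merged regions were counted there, with 116497 linked to a gene against 96553 regions in the main setting. The regions at listed genes fell from 538 to 266 with the stricter day 28 threshold and to 313 with the 200 bp merge. With the stricter threshold the day 28-only share was 17.9% at digestive enzyme genes, 15.2% at unfolded protein response genes and 10.3% at acinar transcription factor genes, where all gene-linked regions gave 5.66%. The acinar factor share was 12.2% with the 200 bp merge, where all gene-linked regions gave 7.44%. These 3 lists lay above the share over all gene-linked regions in 8 of 8 settings, as did the Reg, ubiquitous, secretagogue, amino acid, EGFR and MAPK, cell cycle and export lists. The fibroblast, inflammatory, tuft cell, oxidative phosphorylation, adipocyte and erythroid lists did so in 0 of 8. Any excess counts here, however small, and the settings reuse the same data. Export genes stood at 5.88% with the stricter threshold. Cell cycle genes stood at 10.2% with the common floor, where all gene-linked regions gave 10.1%. In the main setting the intervals of the amino acid, EGFR and MAPK, cell cycle and export lists held the background. The share at gene ends was 12.9% within 2 kb, 2.48% within 500 bp and 3.74% with the 200 bp merge. The share within 1 kb of another list's peak was 58.5% with the stricter threshold, 59.2% with weak peaks of other lists ignored and 41.2% with the 200 bp merge. It was 71.1% of the peaks under the summit rule, which allows overlap with another list's peak away from the summit. No paired analysis was possible because each group was 1 library and the result comes from no test. The unknown read depth and the differing enrichment of the lists limit what absence from a list means, and a weak peak in another library may lie just under its threshold. The causes of these shifts were not tested.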

Other observations

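Of the 717 day 28-only regions more than 10 kb from any peak of another list, the 5 with the highest fold were chosen after their values were seen. They were the region at Xlr3a, a region inside Tcf12, which encodes an E-protein transcription factor, at chr9:71871024-71871257 with a fold of 8.23, and a region 7183 bp from Gm10639 at chr9:78282624-78282867 with the same fold. The other two were a region on chromosome 10 with no protein-coding gene within 50 kb, at chr10:91546183-91546511 with a fold of 7.66, and a region inside Akr1cl at chr1:65029698-65030035 with a fold of 7.38. Their distances to the nearest other peak were 42660, 17214, 64318, 48154 and 19133 bp. Inside genes lay 50.9% of these 717 regions and 66.5% of those within 1 kb of another list's peak.

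Beyond the 10 genes with the most regions, Dmbt1, a gene of a secreted scavenger receptor protein of epithelia, held 15 day 28-only regions of 46 at day 28. The untreated, day 1 and day 7 lists had 43, 3 and 10 regions there. Itga6, the integrin alpha 6 gene, held 12 of 37, with 23, 15 and 16 regions in the earlier lists. Both were picked after their values were seen.

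Runs of at least 2 neighbouring day 28-only regions with no other region between them held 21.4% of the 11252, which were 5.02% of all merged regions. The share in such runs was 37.3% for untreated-only, 54.0% for day 1-only and 20.2% for day 7-only regions. Those sets were 10.5%, 23.0% and 4.49% of all merged regions.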
